A study of Mus musculus with 6 samples.

Results

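The transcripts described here encode the subunits of the mitochondrial respiratory chain and of ATP synthase. They were measured in the progeny of CD4N cells that lacked Foxo1 (Foxo1TKO, 3 libraries) or carried it (Foxo1Ctrl, 3 libraries). Members were chosen by symbol alone from the deposited table of normalised signal, and 100 of its 13564 genes matched. Of these, 87 are encoded in the nucleus (Nduf, Sdh, Uqcr, Cox and Atp5 symbols) and 13 by the mitochondrial genome, which are all of its protein-coding genes. Foxo1TKO mice carry CD4-cre and floxed Foxo1 alleles, so that Foxo1 is deleted in both CD4 and CD8 lineages from the thymus onward. Foxo1Ctrl mice carry the floxed alleles without Cre. Both are on a C57BL/6 background, and the methods give mice as 3 months old unless stated otherwise. Naive CD4 T cells were sorted from lymph nodes and stimulated for 4 days with 0.1 µg/ml of anti-CD3 antibody in the presence of 250000 splenocytes from mice without CD3ε, and hence without T cells. The labels give 50000 T cells per culture and the methods a larger number, so that the ratio of T cells to splenocytes is uncertain. The sources used here do not say whether these splenocytes were removed before RNA extraction, nor that replicates came from separate mice, so that p-values measure the spread between these libraries, which may be technical.

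The respiratory chain passes electrons from NADH (complex I) and succinate (complex II) through coenzyme Q to complex III, then through cytochrome c to complex IV, which reduces oxygen. Complexes I, III and IV pump protons out of the matrix, and ATP synthase (complex V) uses their return to make ATP. Complex II is built from nuclear genes only, whereas the other complexes join subunits made from both genomes. T cells enlarge this machinery when they leave quiescence.

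Library totals ran from 14783890 to 19675447 expected counts. Foxo1 itself had 85.4, 46.5 and 115 normalised counts in the Foxo1TKO libraries and 1529, 2285 and 1598 in the Foxo1Ctrl libraries (log2 fold change -4.45 ± 0.36 SE, edgeR adjusted p = 0.000195). The 13 T cell markers summed to between 176895 and 179185 normalised counts in Foxo1TKO and between 191826 and 203979 in Foxo1Ctrl libraries. Among them 1 fell and 0 rose, beside 12.4% and 11.8% of all genes tested. B cell markers were lower in Foxo1TKO libraries, with sums of 5467 to 6474 against 13784 to 22272. Of the 12 tested 7 fell, against 12.4% of all genes. Dendritic cell markers summed to 554 to 641 against 154 to 271. Of the 3 tested 1 rose (33.3%, against 11.8% of all genes), namely Itgax, with a log2 fold change of 7.91. At that size it passed the filter on low counts only through the Foxo1TKO libraries and had to differ, so its call is no support. Macrophage markers summed to 62.9 to 114 in all libraries, with Mertk, C1qa and C1qc at 0. Neutrophil markers summed to 19.3 to 44.8 in Foxo1TKO and 0 to 3.58 in Foxo1Ctrl libraries. The part of these cells in the results was not tested, and in bulk RNA fewer cells of a type and less RNA per cell cannot be told apart.

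One set of sequences bears on how far the mitochondrial counts can be read. A stretch of chromosome 1 (GRCm38) holds a nuclear copy of part of the mitochondrial genome, annotated as separate pseudogenes on the minus strand. Gm28438, for example, lies at chr1:24612775-24613119 and aligned to 345 of the 348 bases of mt-Nd3 with a single substitution, T3C, counted from the first base of mt-Nd3 with its base first. The first 60 bases of both are shown because they show how little separates the gene from its copy, with the differing base in capitals.
mt-Nd3: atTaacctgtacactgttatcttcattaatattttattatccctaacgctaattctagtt
Gm28438: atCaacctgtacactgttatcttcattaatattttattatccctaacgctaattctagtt

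Promoter windows of 300 bases (250 before to 50 after the start, RefSeq, GRCm38.p6) were found for 66 of the 87 nuclear members, and 6 of the 8 nuclear members called below had one. These words were searched on both strands: GCGCANGCG (the core bound by NRF1), CCGGAAG (GABPA), AAGATGGC (YY1) and TGTTTAC (the forkhead word bound by FOXO factors). NRF1 and GABPA are textbook activators of respiratory genes. The NRF1 word was in 20 of the 66 members (30.3%) and in 7.03% of all 27025 genes with a window. The GABPA word was in 17 members (25.8%, against 9.93%) and the YY1 word in 10 (15.2%, against 3.19%). The FOXO word was in 1 member (1.5%, against 4.05%), and this member was Cox7a2. The windows of Cox7a2 (chr9:79759804-79760103, minus strand), of its paralog Cox7a2l (chr17:83514284-83514583, minus strand) and of Atp5e (chr2:174464052-174464351, minus strand) are shown because the first 2 genes had log2 fold changes of opposite sign, and Atp5e was the called member with a GABPA word. Capitals mark a FOXO word in Cox7a2, starting 212 bases before the start, and a GABPA word in Atp5e, starting 102 bases before it. Ndufa4, Atp5b, Uqcr10 and Atp5g1, the other called members with a window, held none of the words searched. The NRF1 and YY1 words found in members were thus all in members that were not called. Only 6 of the 66 members with a window were called, too few to relate the words to the calls. A match is a description of these letters and not a site of binding.
Cox7a2: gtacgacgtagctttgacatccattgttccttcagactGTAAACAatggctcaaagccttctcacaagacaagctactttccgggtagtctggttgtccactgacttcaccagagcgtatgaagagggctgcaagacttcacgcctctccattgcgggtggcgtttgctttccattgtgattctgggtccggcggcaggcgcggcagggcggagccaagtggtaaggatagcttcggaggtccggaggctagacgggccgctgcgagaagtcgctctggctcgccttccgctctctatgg
Cox7a2l: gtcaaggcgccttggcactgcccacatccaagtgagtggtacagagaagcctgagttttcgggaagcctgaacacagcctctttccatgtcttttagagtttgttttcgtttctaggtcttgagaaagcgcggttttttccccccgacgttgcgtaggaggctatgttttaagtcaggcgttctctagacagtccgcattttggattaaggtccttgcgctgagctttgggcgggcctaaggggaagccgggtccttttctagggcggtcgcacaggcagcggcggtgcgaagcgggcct
Atp5e: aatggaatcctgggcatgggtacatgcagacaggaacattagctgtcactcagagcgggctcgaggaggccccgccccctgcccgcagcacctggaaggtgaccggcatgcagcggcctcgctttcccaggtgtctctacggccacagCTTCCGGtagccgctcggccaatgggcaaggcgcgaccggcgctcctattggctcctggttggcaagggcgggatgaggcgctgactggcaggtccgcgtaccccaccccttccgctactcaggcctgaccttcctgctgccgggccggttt

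The summed level of nuclear-encoded subunits was higher in each Foxo1TKO library than in each Foxo1Ctrl library, while few single subunits passed the test. Their summed level per length was 36258, 38157 and 38825 TPM (a level scaled to transcript length and library total) in the Foxo1TKO libraries and 28400, 34848 and 28615 TPM in the Foxo1Ctrl libraries. The groups did not overlap, although Foxo1Ctrl replicate 2 lay near the Foxo1TKO range. All 87 genes were tested with edgeR's quasi-likelihood test, in which a gene was called when its p, adjusted over the 13691 genes tested, was under 0.05. Of these, 8 rose, 0 fell and 79 did not pass. At an unadjusted p under 0.05, 19 were higher (21.8%, against 18.4% of all genes) and 1 was lower (18.3% of all genes). DESeq2 called 12 higher (13.8%, against 14.7% of all genes) and 0 lower (14.8% of all genes). The share that rose, 9.2%, was below the 11.8% of all tested genes that rose, and 12.4% of all genes fell. The median log2 fold change of the 87 was 0.24, beside 0.01 for all genes, and 71 of the 87 were above 0. In 18 members the lowest Foxo1TKO library exceeded the highest Foxo1Ctrl library and in 2 the reverse held, beside 21.5% and 21.2% of all genes. Most members thus had small positive fold changes. The share called in edgeR or DESeq2, or without overlap, was no larger than that of all genes. The share higher at an unadjusted p under 0.05 was larger. A correction for GC content and length called 13 nuclear members, 12 higher (13.8%, against 14.8% of all genes) and Cox7a2l lower (13.5% of all genes were lower).

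**Figure D1:**
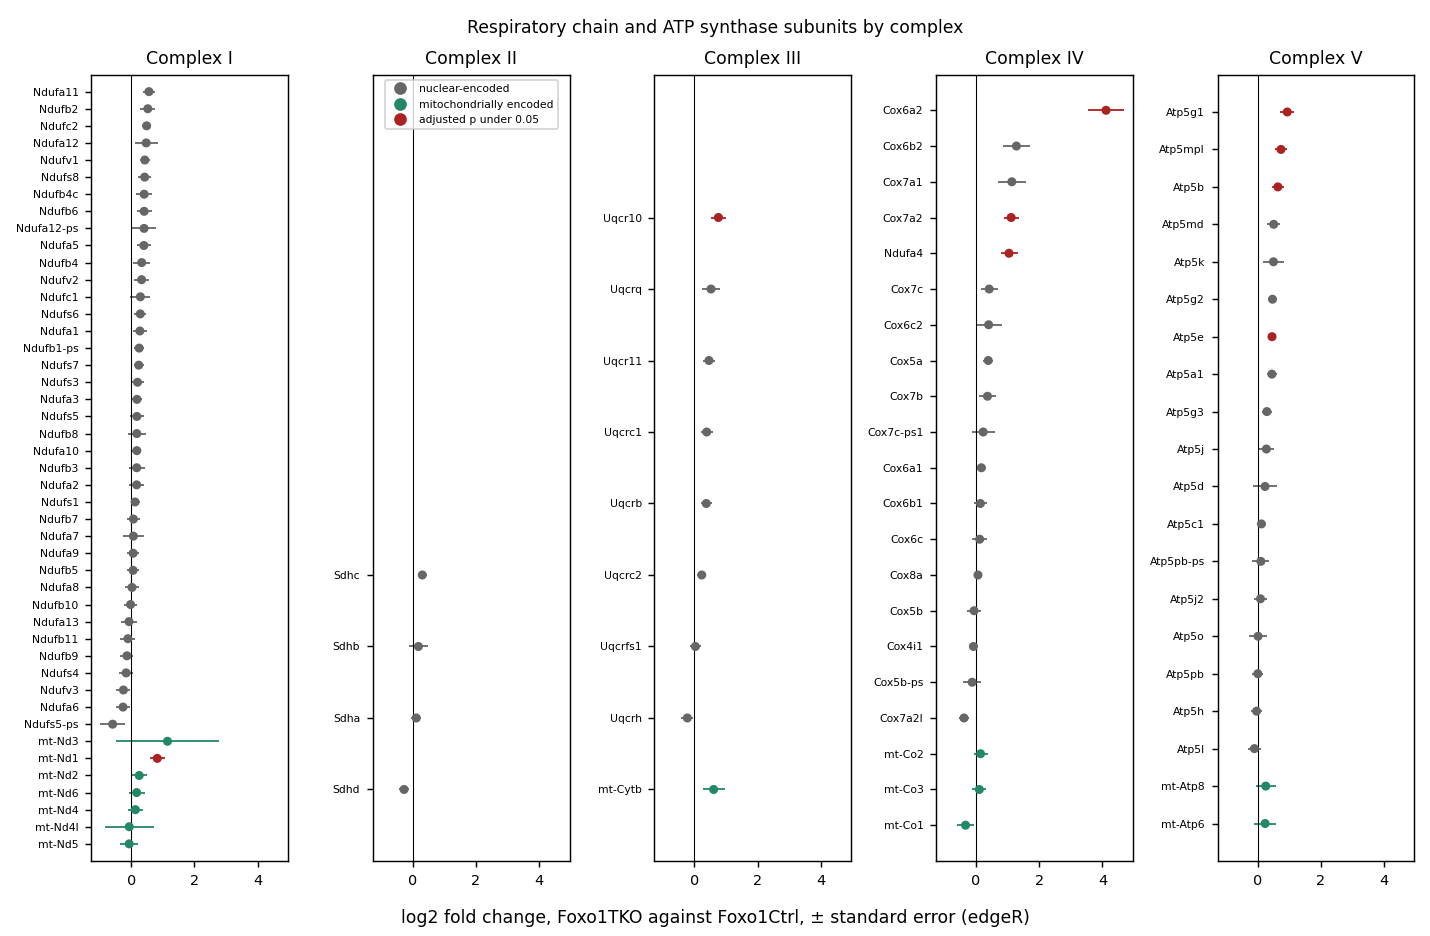
Log2 fold change (Foxo1TKO against Foxo1Ctrl, ± standard error) of the members reported individually, in 1 panel per complex, with nuclear-encoded members in grey, mitochondrially encoded members in green and members with an adjusted p under 0.05 in red. The 9 red points are all to the right of 0, and Cox6a2 stands far out at 4.12.

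Libraries of both genotypes stood apart in these members. Foxo1Ctrl replicate 2 was the highest Foxo1Ctrl library in 75 of the 87 nuclear members (86.2%), against 39.6% of all genes tested. Foxo1TKO replicate 1 was the lowest Foxo1TKO library in 66 of them (75.9%, against 42.5% of all genes). Short genes (at most 1000 bases) exceeded long ones (over 3000) by 0.226 (log2) in Foxo1Ctrl replicate 2, while the other Foxo1Ctrl libraries stood at -0.177 and -0.267. Genes of high GC content were 0.59 below those of low GC content in it (a difference of -0.59), against 0.183 and 0.0704 in the others. Foxo1TKO libraries ranged from -0.105 to 0.232 for length and from -0.143 to 0.504 for GC content, with the 0.504 in replicate 1. The part of these library properties in the result was not tested. Without Foxo1Ctrl replicate 2, 28 nuclear members rose (32.2%, against 13.7% of all genes) and their median was 0.42. Leaving out Foxo1TKO replicate 2 left 0 nuclear members called, and leaving out Foxo1TKO replicate 1, Foxo1TKO replicate 3, Foxo1Ctrl replicate 1 or Foxo1Ctrl replicate 3 left 5, 2, 1 and 1. Calls were also fewer over all genes. Without Foxo1TKO replicate 2, 657 of 13236 genes rose, beside 1613 of 13691 with all libraries. In the other fits, in the same order, 1081 of 13219, 925 of 13292, 882 of 13354 and 1125 of 13303 rose. Of the 8 genes called, 7 kept their call in 1 to 3 of these 6 fits. Cox6a2 passed the filter on low counts only through the Foxo1TKO libraries, so that it could not be tested without 1 of them. Its calls in the other fits are no support. It was the only member called without Foxo1Ctrl replicate 1 and the only one without Foxo1Ctrl replicate 3. It was also among the 28 called without Foxo1Ctrl replicate 2.

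Complex I, the NADH dehydrogenase and the largest complex, held 39 of the nuclear members. Of these, 0 passed the test, against 11.8% of all genes that rose and 12.4% that fell. At an unadjusted p under 0.05, 4 were higher (18.4% of all genes were) and 0 lower. DESeq2 called 2 (14.7% of all genes rose in it). The 39 had a median log2 fold change of 0.18. The 7 nuclear core subunits, which carry the flavin and iron-sulphur clusters, were all above 0, from 0.12 to 0.43. Ndufc2, an accessory subunit, was the member of complex I nearest to the threshold (2192, 2279 and 2156 against 1474, 1845 and 1414 normalised counts, adjusted p = 0.0538). At the other end stood Ndufs5-ps, a pseudogene of few counts, at -0.59, and among coding genes Ndufa6 at -0.26 and Ndufv3 at -0.25. Of the 50-base words of Ndufb4, 37% were also in Ndufb4c, and Ndufa12 shared words with its pseudogene, so that the split of reads between them is uncertain.

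Complex II, succinate dehydrogenase, also belongs to the tricarboxylic acid cycle, and 0 of its 4 genes passed in edgeR (0 at an unadjusted p under 0.05, 0 in DESeq2). Sdha, the flavoprotein, had 8398, 8721 and 7389 against 8685, 6295 and 7772 normalised counts, and the groups overlapped (log2 fold change 0.11). Sdhb, the iron-sulphur protein, ranged from 9320 to 14603 and from 8275 to 16084 (0.17). The 2 membrane anchors had log2 fold changes of opposite sign, and neither passed. Their normalised counts did not overlap, as held for 21.5% (higher) and 21.2% (lower) of all genes. In TPM the groups overlapped for both. Sdhc had 1177, 980 and 1150 against 924, 905 and 861 normalised counts (0.30 ± 0.15 SE, adjusted p = 0.186). Sdhd had 2487, 2652 and 2415 against 3064, 3446 and 2653 (-0.28 ± 0.15 SE, adjusted p = 0.219). Its groups were barely apart, at 2652 in Foxo1TKO replicate 2 and 2653 in Foxo1Ctrl replicate 3.

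In complex III, which passes electrons to cytochrome c, 1 of 8 genes rose (12.5%, against 11.8% of all genes). Uqcr10 (chromosome 11, 4701973 to 4704342, minus strand), a small accessory subunit, had 4304, 5693 and 6315 normalised counts in Foxo1TKO libraries and 2643, 4220 and 2783 in Foxo1Ctrl libraries. Every Foxo1TKO library was above every Foxo1Ctrl library, with a narrow gap between Foxo1TKO replicate 1 and Foxo1Ctrl replicate 2. The log2 fold change was 0.76 ± 0.23 SE (1.69-fold, adjusted p = 0.0477), and the call was lost with DESeq2 size factors (adjusted p = 0.0555) and upper quartile scaling (0.0614). The core proteins Uqcrc1 and Uqcrc2 were at 0.39 and 0.23 and the Rieske protein Uqcrfs1 at 0.03, and none of these 3 passed. Cytochrome c1, the haem subunit of this complex, has the symbol Cyc1 and is not matched by the symbols used for the members. It had 2925, 2629 and 2688 against 1800, 1617 and 2039 normalised counts and rose (0.60 ± 0.15 SE, adjusted p = 0.0219), with the call kept in 2 of 6 fits made without a library.

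Complex IV, cytochrome c oxidase, held 18 nuclear members. Of these, 3 rose (16.7%, against 11.8% of all genes) and 0 fell (12.4% of all genes). For lower, 1 had an unadjusted p under 0.05 and DESeq2 called 0. Cox7a2 (chromosome 9, 79755361 to 79759878, minus strand), the form of subunit 7a that most tissues use, had 5014, 6205 and 7298 normalised counts in Foxo1TKO and 2357, 3824 and 2387 in Foxo1Ctrl libraries. The Foxo1TKO libraries were all higher (log2 fold change 1.11 ± 0.24 SE, 2.16-fold, adjusted p = 0.0128). Ndufa4 (chromosome 6, 11900292 to 11907497, minus strand), named for complex I but a subunit of complex IV, had 2956, 3732 and 3793 against 1202, 2438 and 1442 (1.04 ± 0.27 SE, 2.06-fold, adjusted p = 0.0261). Cox6a2 (chromosome 7, 128205435 to 128206387, minus strand), the heart and skeletal muscle form of subunit 6a, was rare: 25, 30 and 37 reads in Foxo1TKO and 1, 0 and 1 in Foxo1Ctrl libraries. The ratio of the summed counts, scaled to library size, was 38.8 with an exact 95% counting interval of 10.4 to 325, which covers counting error only. Cox6a2 reached 10 counts in the Foxo1TKO libraries alone and so had to differ once it entered the test (adjusted p = 0.00191). Without it, 2 nuclear members of complex IV and 7 of all nuclear members rose.

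**Figure D2:**
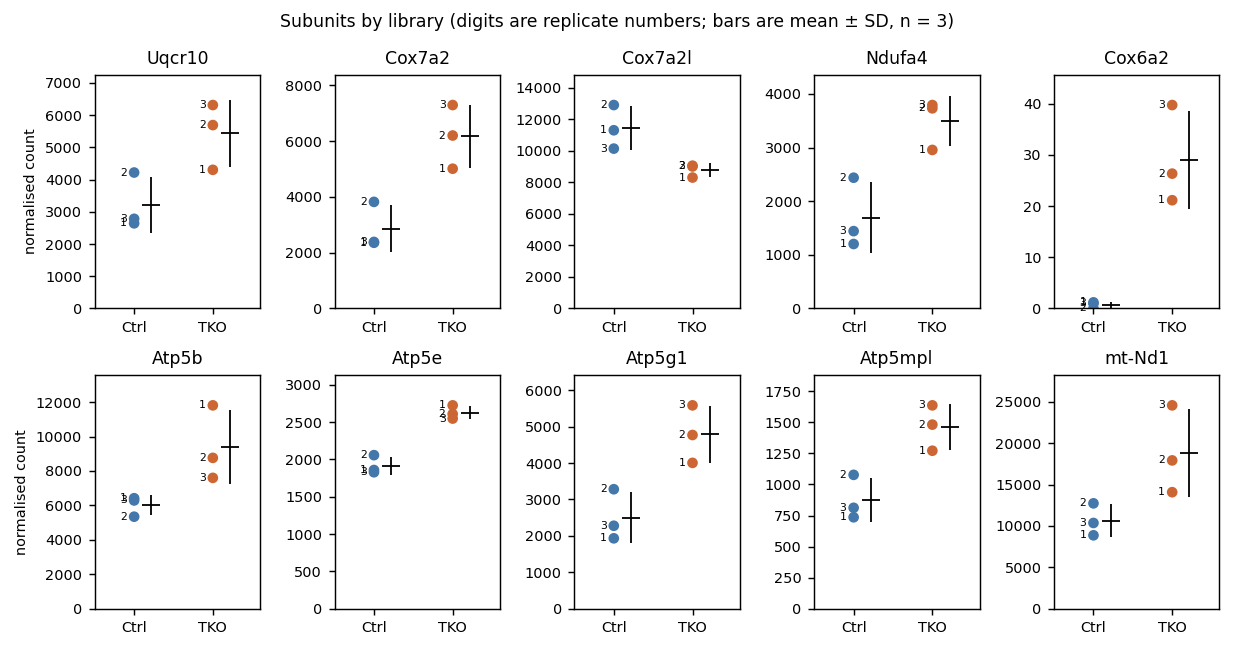
Normalised count in each library for the 8 nuclear members that rose, for Cox7a2l and for mt-Nd1, with replicate numbers beside the points and mean ± SD (n = 3) as bars; each axis starts at 0. All panels show separate groups, with Cox7a2l the only one in which the Foxo1Ctrl libraries were higher.

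Paralogs of complex IV had log2 fold changes of different size, and the differences between the genes were not tested. Cox7a2l, a homolog of Cox7a2, had 8303, 9056 and 9006 normalised counts in Foxo1TKO and 11301, 12901 and 10138 in Foxo1Ctrl libraries. All Foxo1TKO libraries were below, but the adjusted p was 0.101 (log2 fold change -0.38 ± 0.15 SE). Per length, Cox7a2 took 57.7, 60.6 and 64.4% of the summed TPM of Cox7a1, Cox7a2 and Cox7a2l in Foxo1TKO libraries and 31.4, 39.6 and 33.8% in Foxo1Ctrl libraries. Of these 2 genes, Cox7a2 thus had the higher TPM in each Foxo1TKO library and Cox7a2l in each Foxo1Ctrl library. These are transcript shares, and whether the 2 products can take each other's place in complex IV was not tested. The means were 60.9 ± 3.35% and 34.9 ± 4.2% (SD, n = 3; two-sided exact permutation p = 0.1, the smallest that 3 against 3 can give; 0.111 after adjustment over 10 shares). Cox7a1, the muscle form, made at most 0.447% of the family in every library. Cox6a2 made 0.817 ± 0.377% of subunit 6a in Foxo1TKO and 0.0222 ± 0.0195% in Foxo1Ctrl libraries, so that Cox6a1 made almost all of it in both genotypes, and Cox6a1 had a log2 fold change of 0.17 (adjusted p = 0.466). Cox6b2, the testis form, had 23.7, 19.3 and 31.1 against 8.35, 13.7 and 6.78 normalised counts (1.28 ± 0.42 SE, adjusted p = 0.0609), and Cox6b1 held over 99% of subunit 6b in every library (log2 fold change 0.14). Cox4i1 and Cox8a were at -0.08 and 0.06, and Cox4i2, Cox8b, Cox8c and Ndufa4l2 had 0 counts in every library.

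**Figure D3:**
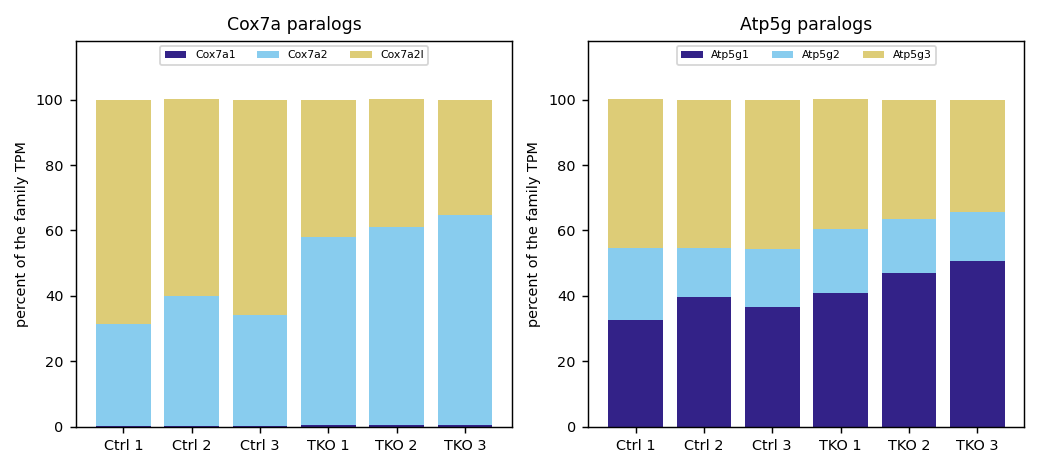
Share of each paralog in the summed TPM of its family, in percent, per library, for Cox7a1, Cox7a2 and Cox7a2l (left) and Atp5g1, Atp5g2 and Atp5g3 (right). Cox7a2 made 57.7% to 64.4% of its family in Foxo1TKO and 31.4% to 39.6% in Foxo1Ctrl libraries.

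In complex V, ATP synthase, 4 of 18 nuclear members rose (22.2%, against 11.8% of all genes) and 0 fell (0 at an unadjusted p under 0.05 for lower, and 0 in DESeq2). Atp5g1 (chromosome 11, 96068852 to 96075670, minus strand) is 1 of 3 genes for the same c subunit, whose ring turns as protons pass. It had 4005, 4771 and 5585 normalised counts in Foxo1TKO and 1934, 3282 and 2279 in Foxo1Ctrl libraries (log2 fold change 0.94 ± 0.23 SE, 1.92-fold, adjusted p = 0.021). Atp5mpl (chromosome 12, 111961375 to 111966977, minus strand), a small membrane subunit, had 1271, 1481 and 1636 against 736, 1077 and 812 (0.74 ± 0.19 SE, adjusted p = 0.0269). Atp5b (chromosome 10, 128083273 to 128090391, plus strand), the catalytic beta subunit, had 11812, 8762 and 7601 against 6418, 5346 and 6290 (0.64 ± 0.19 SE, adjusted p = 0.046). Here Foxo1Ctrl replicate 2 was the lowest library, unlike in most members. Atp5e (chromosome 2, 174461072 to 174464105, minus strand), the epsilon subunit of the central stalk, had 2724, 2608 and 2547 against 1858, 2057 and 1828 (0.46 ± 0.13 SE, 1.37-fold, adjusted p = 0.0394). The Atp5e call was lost with upper quartile scaling (0.0535), with no filter on low counts (0.0961) and with the GC correction (0.0709).

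The 3 genes for the c subunit had log2 fold changes of different size, and the differences between the genes were not tested. They summed to 1532, 1426 and 1464 TPM in Foxo1TKO and 863, 998 and 913 TPM in Foxo1Ctrl libraries. Atp5g1 took 46.2 ± 5.08% of this sum in Foxo1TKO and 36.4 ± 3.55% in Foxo1Ctrl libraries, and Atp5g3 36.9 ± 2.79% and 45.4 ± 0.146% (SD, n = 3; exact permutation p = 0.1 for both, 0.111 adjusted over 10 shares). For Atp5g1 the groups were barely apart, at 40.8% in Foxo1TKO replicate 1 and 39.7% in Foxo1Ctrl replicate 2. Atp5g2 and Atp5g3 had log2 fold changes of 0.47 (adjusted p = 0.0606) and 0.29 (0.239). Adding the reads of its pseudogene to Atp5g2 gave 0.54 with an adjusted p of 0.0319. Atp5a1, the alpha subunit that pairs with Atp5b, had 12014, 10189 and 9819 against 7959, 7206 and 8242 normalised counts (0.45 ± 0.15 SE, adjusted p = 0.0596).

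Across complexes, summed nuclear TPM was 13755 ± 1250 in Foxo1TKO and 11620 ± 1957 in Foxo1Ctrl libraries for complex I, and 1292 ± 86.1 against 1150 ± 142 for complex II. It was 5484 ± 312 against 4252 ± 361 for complex III, 8103 ± 104 against 6498 ± 554 for complex IV, and 9114 ± 211 against 7099 ± 659 for complex V (SD, n = 3). The libraries of both genotypes overlapped for complexes I and II and did not for III, IV and V. Whether complexes differed from each other in their change was not tested.

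The 13 mitochondrially encoded subunits were less clearly shifted. In edgeR, 1 of them rose and 0 fell (7.69% rose, against 11.8% of all genes; 0 at an unadjusted p under 0.05 for lower, and 0 in DESeq2), with a median log2 fold change of 0.17, which became -0.01 without Foxo1TKO replicate 3. mt-Nd1, a membrane core subunit of complex I (mitochondrial genome, 2751 to 3707, plus strand), had 14083, 17922 and 24574 normalised counts in Foxo1TKO and 8874, 12735 and 10364 in Foxo1Ctrl libraries. It was the one mitochondrial member without overlap (0.82 ± 0.24 SE, 1.77-fold, adjusted p = 0.0389), and the call was kept in 2 of 6 fits made without a library, those without Foxo1TKO replicate 1 or Foxo1Ctrl replicate 2 (adjusted p up to 0.154 in the others). The other complex I genes overlapped between genotypes. mt-Nd2 had 3312, 4083 and 5997 against 3120, 4728 and 3407 normalised counts (0.25). mt-Nd4 had 9975, 11015 and 16222 against 9838, 13681 and 10512 (0.13). mt-Nd5 had 5968, 8035 and 11505 against 7306, 11745 and 7657 (-0.07). Foxo1TKO replicate 3 and Foxo1Ctrl replicate 2 were the highest of their groups in all 3 of these genes. mt-Nd6, on the other strand of the genome, had 1655, 1797 and 2943 against 1661, 2342 and 1682 (0.17), and whether counting used strand is not given in the sources used here.

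mt-Cytb, the haem protein of complex III, varied widely within each genotype, with 78608, 120871 and 170828 against 57688, 116690 and 68696 normalised counts (0.61 ± 0.35 SE, adjusted p = 0.252). In complex IV, mt-Co1, the catalytic subunit, had 36757, 48549 and 70902 against 56015, 84654 and 55977 (-0.33 ± 0.28 SE, adjusted p = 0.437). mt-Co1, mt-Nd5 and mt-Nd4l were the mitochondrial members with a log2 fold change below 0. mt-Co2 had 10455, 12171 and 13939 against 9509, 14682 and 8900 (0.14), and mt-Co3 had 6225, 4874 and 4580 against 5139, 3545 and 5890 (0.10). In complex V, mt-Atp6, part of the proton channel, had 21799, 25787 and 37888 against 17333, 37359 and 17771 (0.24), and mt-Atp8 7176, 10363 and 13446 against 6822, 12484 and 6604 (0.26). mt-Atp8 and mt-Atp6 share bases, as do mt-Nd4l and mt-Nd4.

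Several of these counts were split with the nuclear copy. Gm10925 matched 678 of the 681 bases of mt-Atp6 with 0 mismatches, Gm28661 matched 681 of 684 bases of mt-Co2, Gm28437 matched 783 of 784 of mt-Co3 and Gm10222 294 of 297 of mt-Nd4l, also with 0. Reads of these genes and of their copies therefore cannot be told apart over the matched bases. Copies took 73.4 to 79.1% of the joint counts of mt-Atp6, 74.1 to 86.1% of mt-Co3, 63.4 to 94.7% of mt-Nd4l and 16 to 46.4% of mt-Co2. mt-Nd3 had 98.9, 111 and 0 normalised counts of its own in Foxo1TKO and 95.4, 0 and 0 in Foxo1Ctrl libraries, and its copy took from 0 to 100% of the joint counts. With the copies added, mt-Nd3 became 200, 160 and 202 against 95.4, 133 and 120 normalised counts, with no overlap (0.68 ± 0.23 SE, adjusted p = 0.0684). mt-Nd4l, whose own counts of 71.8, 36.8 and 262 against 200, 148 and 38.8 gave -0.06, became 657, 700 and 799 against 548, 532 and 528 (0.42 ± 0.16 SE, adjusted p = 0.0895). mt-Co3 became 30197, 28628 and 31619 against 22325, 25510 and 22775 (0.36 ± 0.14 SE, adjusted p = 0.105). None of these 3 genes passed the test. The joined counts of each were higher in Foxo1TKO without overlap, as held for 21.5% of all genes. mt-Co1, mt-Co2 and mt-Atp6 joined with their copies were at -0.34, 0.12 and 0.25. With copies added 1 of 13 was called, and the median was 0.25. The correction for GC content and length called 5, namely mt-Nd1, mt-Nd2, mt-Cytb, mt-Atp6 and mt-Atp8, all higher (38.5% of 13, against 14.8% of all genes).

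**Figure D4:**
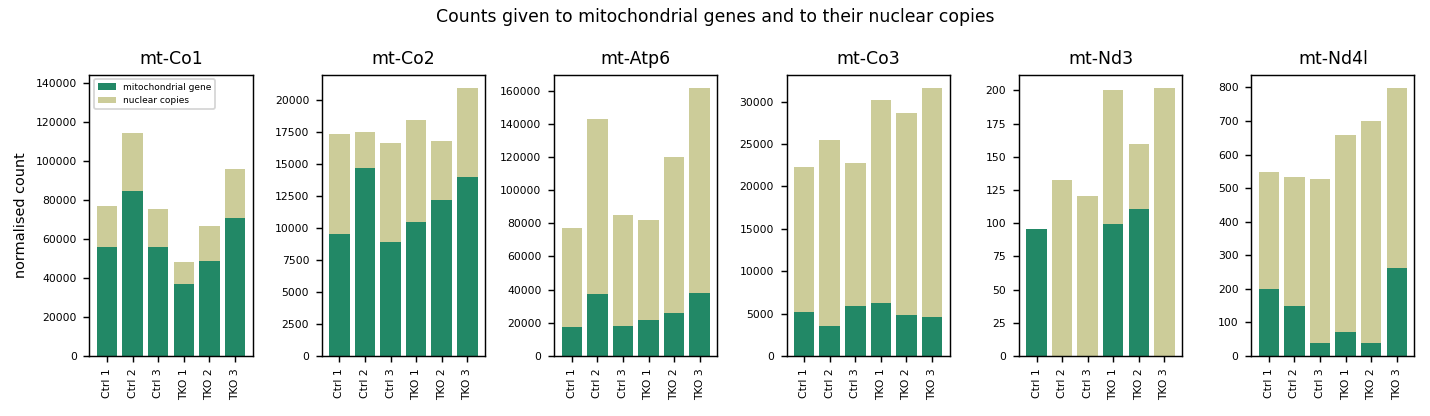
Normalised counts of 6 mitochondrial genes per library, stacked as the part given to the mitochondrial gene (green) and to its nuclear copies (tan); each panel has its own axis from 0. For mt-Nd3 the green part is absent in 3 of 6 libraries although the joint height is 95.4 to 202.

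Set side by side, both genomes gave small positive medians, 0.24 for nuclear and 0.17 for mitochondrial members, with different spread. Summed mitochondrial TPM was 25769, 31374 and 40875 in Foxo1TKO and 21819, 31611 and 23327 in Foxo1Ctrl libraries, which overlapped. The ratio of mitochondrial to nuclear sums was 0.711, 0.822 and 1.05 in Foxo1TKO and 0.768, 0.907 and 0.815 in Foxo1Ctrl libraries. Means were 0.861 ± 0.173 and 0.83 ± 0.0707 (SD, n = 3), and the difference of the log2 ratios was 0.04, well within the spread between replicates of 0.22. With copies added to both sums the ratios were 1.13, 1.31 and 1.65 against 1.3, 1.45 and 1.38, and the difference turned to -0.03. No difference in balance between the genomes was detectable with these libraries.

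**Figure D5:**
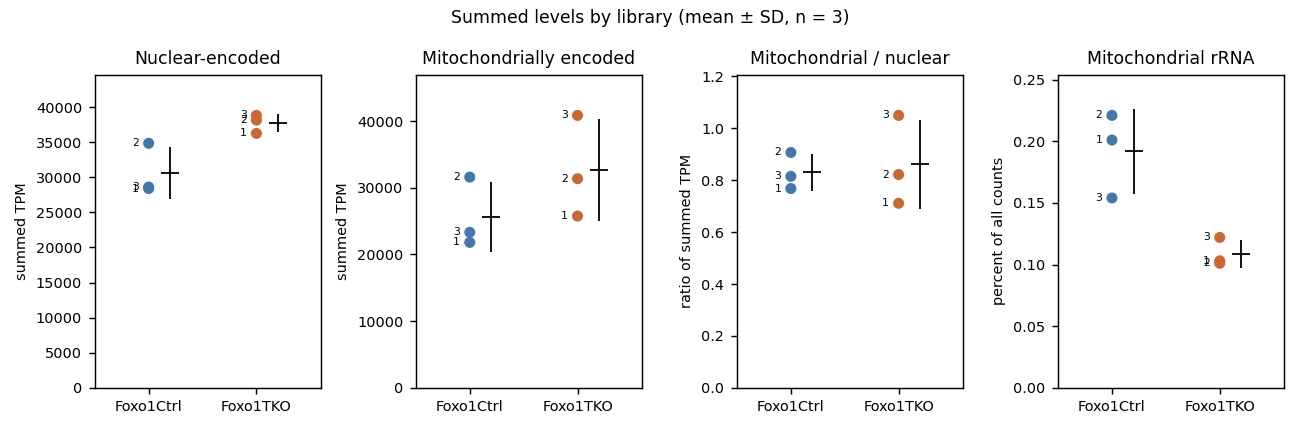
Summed TPM of nuclear-encoded and mitochondrially encoded subunits, their ratio, and mitochondrial ribosomal RNA as a percent of all counts, per library with mean ± SD (n = 3). Nuclear sums and ribosomal RNA were separate between genotypes, and mitochondrial sums and the ratio overlapped.

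The 2 ribosomal RNAs of the same genome went the other way. mt-Rnr1 had 1450, 1705 and 2224 normalised counts in Foxo1TKO and 3478, 4620 and 2740 in Foxo1Ctrl libraries (-1.01 ± 0.24 SE, adjusted p = 0.0187). mt-Rnr2 had 15100, 15718 and 19420 against 31975, 39261 and 24490 (-0.93 ± 0.21 SE, adjusted p = 0.0153). Both fell, and each Foxo1TKO library was below each Foxo1Ctrl library. They made 0.103, 0.101 and 0.122% of all counts in Foxo1TKO and 0.201, 0.221 and 0.154% in Foxo1Ctrl libraries. When libraries were left out in turn, mt-Rnr1 was called 4 times of 6 and mt-Rnr2 3 times of 6. How ribosomal RNA was removed or messenger RNA selected is not given in the sources used here.

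Genes that build, feed or regulate the chain were read from lists, whose counts stand beside 11.8% of all genes that rose and 12.4% that fell. Among assembly factors, 3 of 48 tested rose (6.25%) and 0 fell, with a median of 0.23. Ndufaf4, which helps assemble complex I, rose to 762, 806 and 1045 from 299, 459 and 388 normalised counts (1.19, adjusted p = 0.00681), and Ndufaf6 rose by 1.17 (0.0211). Among cytochrome c and electron carriers, 4 of 9 rose (44.4%) and 1 fell, with a median of 0.36, and Cyc1 was 1 of the 4. Gpd2, the mitochondrial glycerol 3-phosphate dehydrogenase that hands electrons to coenzyme Q, had 723, 593 and 589 normalised counts in Foxo1TKO and 94.2, 113 and 127 in Foxo1Ctrl libraries (2.50 ± 0.20 SE, adjusted p = 0.000208). This log2 fold change was larger than that of every subunit but Cox6a2, and it was called whichever library was left out. Etfb, a subunit of the electron transfer flavoprotein, rose (1.01, adjusted p = 0.0199). Sqor, which passes electrons from sulphide, fell to 98.9, 103 and 108 from 260, 160 and 232 (-1.07, adjusted p = 0.0171). Cytochrome c itself, Cycs, was at 0.36 (adjusted p = 0.459).

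Of 13 coenzyme Q genes, 3 rose (23.1%) and 0 fell, with Coq7 at 0.90 (adjusted p = 0.0209) and Coq9 at 0.67 (0.0137), and a median of 0.46. Of 13 tricarboxylic acid cycle genes other than complex II, 2 rose (15.4%) and 0 fell, with a median of 0.35. Fh1, fumarase, had 1299, 1027 and 1156 against 582, 535 and 551 normalised counts (1.06 ± 0.16 SE, adjusted p = 0.0027), and Suclg2, a succinyl-CoA ligase subunit, was at 0.90 (0.00834). Among ADP-ATP and phosphate carriers 1 of 7 rose (14.3%, median 0.30), namely Slc25a5, an exporter of ATP from the matrix (0.82, adjusted p = 0.00757).

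Of 18 genes that maintain and transcribe mitochondrial DNA, 2 rose (11.1%) and 0 fell, with a median of 0.20. Top1mt, the mitochondrial topoisomerase, had 178, 199 and 175 against 44.1, 17.2 and 27.1 normalised counts (2.61 ± 0.35 SE, adjusted p = 0.0018), and Mgme1, a mitochondrial DNA exonuclease, was at 0.92 (0.00608). Tfam, which packages and transcribes the genome, was at -0.28 (0.3) and Polrmt, its RNA polymerase, at 0.22 (0.623). Of 20 genes of mitochondrial RNA processing, 4 rose (20%) and 0 fell, with a median of 0.41, led by Rexo2 (0.99, adjusted p = 0.00744) and Supv3l1 (0.93, 0.0216), an exonuclease and a helicase that degrade RNA. Of 12 nuclear regulators, 2 rose (16.7%) and 1 fell, with a median of -0.21 and 3 of 12 above 0. Nrf1, Gabpa and Yy1, the factors whose words were searched in the promoters, were at -0.29 (adjusted p = 0.611), -0.20 (0.424) and -0.08 (0.792), with overlapping groups. Myc had 6510, 5225 and 5121 against 1492, 1291 and 1973 normalised counts (1.82 ± 0.20 SE, adjusted p = 0.000762), and Pprc1, a coactivator of the PGC-1 family, was at 1.48 (0.00778). Gabpb2, a partner of GABPA, fell (-0.95, adjusted p = 0.00838). Ppargc1b, another PGC-1 coactivator, had few counts, at -0.37 (0.638). When libraries were left out in turn, Ndufaf4, Gpd2, Fh1, Suclg2, Top1mt, Mgme1, Rexo2, Myc, Pprc1 and Gabpb2 were called 6 times of 6. Slc25a5 was called 5 times, Coq9 4 times, Ndufaf6 and Sqor 3 times, and Etfb, Coq7 and Supv3l1 2 times.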

How the data were processed

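The RNA-seq libraries of 3 Foxo1TKO and 3 Foxo1Ctrl cultures were grouped by the genotype in their labels. The members and gene lists were chosen with earlier results of these data known. Reads were aligned by the authors with STAR 2.7.6a to Ensembl GRCm38 and counted with RSEM 1.3.1. The authors deposited RSEM expected counts, TPM and effective lengths per gene and library, and a table of normalised signal, which equals the count divided by relative effective length and a library factor. Strandedness and library kit are not given in the sources used here.

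Expected counts were rounded, and genes reaching 10 counts in 3 or more libraries (13691) entered the test in edgeR 4.0.16 (TMM, quasi-likelihood, prior count 1) in R 4.3.3 with Benjamini-Hochberg adjustment. Normalised counts are TMM-scaled. DESeq2 1.42.0, limma 3.58.1 (voom, and log2 of the deposited signal with a pseudocount of 1), other scalings and filters, a fold over 1.5, a replicate block and leaving out each library were alternatives. Added after seeing the data were the counts of copies that share at least 10% of a member's 50-base words, and a correction for GC content and length (splines with 5 degrees of freedom). The tests were tried on simulated counts. Positions came from GENCODE M21 (GRCm38). Named were all mitochondrial members, the 4 Sdh genes, paralogs, the strongest call per complex and direction, up to 2 genes per list and direction, Tfam, Polrmt, Cycs and Ppargc1b. The other called members, and Ndufc2, Ndufa6, Ndufv3, Ndufs5-ps, Uqcrc1, Uqcrc2, Uqcrfs1, Atp5a1, Cyc1, Nrf1, Gabpa and Yy1, were added to the named genes once their values had been seen. Values of 1 member are not reported here individually. Plots were made in matplotlib 3.10.9.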

Additional observations from a re-analysis of the deposited data

How the results depend on the processing

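Between 6 and 12 nuclear-encoded subunits were called under the planned tools, scalings, filters and thresholds, and 1 mitochondrially encoded subunit under each. Over all genes, calls in both directions ran from 3149 of 13564 (limma on the deposited signal) to 4045 of 13691 (DESeq2) under these tools, scalings and filters. The GC content and length correction moved these counts to 13 (12 higher, and Cox7a2l lower) and 5, or 18 over the complexes together. With the replicate block, 7 nuclear-encoded subunits and 1 mitochondrially encoded subunit were called, 8 in all, with a median log2 fold change, nuclear-encoded subunits, of 0.236 and Foxo1 at -4.472. The replicate numbers are not shown to pair the cultures, since deviations of same-numbered libraries correlated at 0.462, 0.225 and -0.138.

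Leaving out 1 library at a time gave 0 to 28 nuclear-encoded subunits called, 0 to 1 mitochondrially encoded subunits called, and 0 to 29 subunits by complex. Over all genes, 1590 of 13236 were called without Foxo1TKO replicate 2 and 3431 of 13378 without Foxo1Ctrl replicate 2, the ends of the range. The median log2 fold change ran from 0.135 to 0.42 for nuclear-encoded subunits and from -0.011 (without Foxo1TKO replicate 3) to 0.409 for mitochondrially encoded subunits. The log2 difference of summed mitochondrially encoded over summed nuclear-encoded subunit level ran from -0.116 to 0.168, and was -0.028 with the copies added. Log2 fold changes of single genes that changed sign ran from -0.011 to 0.454 for mt-Nd2, -0.102 to 0.289 for mt-Nd4, -1.214 to 0.383 for mt-Nd4l, -0.336 to 0.186 for mt-Nd5, -0.125 to 0.353 for mt-Nd6, -0.069 to 0.259 for mt-Co3, -0.011 to 0.701 for mt-Atp6, -0.004 to 0.191 for Sdha, -0.025 to 0.556 for Sdhb, -0.181 to 0.001 for Cox4i1, -0.094 to 0.121 for Uqcrfs1 and -0.389 to 0.017 for Ndufv3. mt-Nd4l was at 0.422 with copies added and 0.104 with the GC correction, which also turned mt-Nd5 (0.046), Cox6a1 (-0.065) and Cox8a (-0.015). Polrmt was at -0.091 on the deposited signal. The cause of these changes was not tested. Over the named genes, 865 values kept their direction and side of the threshold, 66 lost a call, 11 gained one and 21 changed sign. Depth limits Cox6a2, Cox6b2 and Cox7a1, which had at most 39.7 normalised counts in a library.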
